A study of Homo sapiens with 6 samples.

Results

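The 45 genes described here encode the enzymes and transporters of glycolysis, the pentose phosphate pathway, glycogen turnover and the entry of pyruvate into mitochondria, out of 58735 rows in the count table. They were selected by gene symbol from a list drawn up with the contrast between TAK1 knockdown and control cells already known, so their fold changes and calls are given as a description, and no p-value is printed for them. RD is an established cell line of embryonal rhabdomyosarcoma, a tumor of skeletal muscle lineage. The cells were transduced with lentiviral particles carrying scrambled shRNA (control, n = 3) or an shRNA against TAK1 (TAK1 knockdown, n = 3), both from a pLKO.1-mCherry vector, and poly(A)-enriched RNA was sequenced. Every sample thus shares the cell line, the vector backbone and the transduction. A single TAK1 shRNA was sequenced, so an effect of losing TAK1 and an effect of that one construct cannot be told apart. TAK1 is a kinase that relays cytokine and stress signals, and the comparison asks how the RNA of glucose-use genes differs when its mRNA is depleted. Nothing in the labels says that replicates came from separate cultures, so the tests measure the spread between these samples, which may be technical.

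Glycolysis splits glucose into pyruvate in a preparatory phase that spends ATP and a payoff phase that regains it. Pyruvate is then reduced to lactate and exported by monocarboxylate transporters, or carried into mitochondria and oxidized by the pyruvate dehydrogenase complex, which is switched off by pyruvate dehydrogenase kinases and on by pyruvate dehydrogenase phosphatases. The pentose phosphate pathway branches off to make NADPH and ribose, and glycogen synthase and glycogen phosphorylases store and release glucose units. Many steps have several isozymes with tissue-specific use, and skeletal muscle has its own forms of phosphofructokinase, enolase and glycogen phosphorylase. In tumors, a high rate of glycolysis with lactate export is a widely known trait.

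Total counts per sample ran from 28839898 to 34469323. MAP3K7, which encodes TAK1, had 77.9, 76.5 and 77.6 CPM (the read count scaled to a normalized library size) in the control samples and 30.5, 33.6 and 29.9 CPM in the TAK1 knockdown samples. Its log2 fold change was -1.30 with an SE of 0.062 (Benjamini-Hochberg adjusted p = 4.45e-14 by the quasi-likelihood test of edgeR). The RD label was checked with 12 markers, of which 11 were tested. Of their log2 fold changes, 7 were positive and 4 negative. They ran from -0.40 for CHRNA1 (means of 921 CPM in control and 700 CPM in TAK1 knockdown samples) to 0.98 for MYMK. MYOD1 was between 255 and 271 CPM in control samples and between 322 and 355 CPM in TAK1 knockdown samples, and MYF5 was at 0 in all 6 samples. Leukocyte markers summed to between 0.00 and 0.352 CPM in control samples and between 0.0849 and 0.103 CPM in TAK1 knockdown samples. Epithelial markers summed to between 56.9 and 62.9 CPM against 27.8 and 31.2 CPM, most of it KRT18, with CDH1, KRT19 and KRT14 at 0. Endothelial markers summed to between 8.62 and 9.43 CPM against 18.6 and 22.8 CPM, mainly CLDN5, with CDH5 and KDR at 0. The part of these markers in the results below was not tested.

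In TAK1 knockdown cells, transcripts of GAPDH, ENO1, PKM and LDHA, of the steps from glyceraldehyde phosphate to lactate, were lower, as were those of glucose transporter SLC2A3, hexokinase HK2, phosphofructokinase PFKP and the lactate transporter SLC16A1. In the pyruvate dehydrogenase system PDHB and the phosphatase PDP1 were lower, while the inhibitory kinases PDK1 and PDK3 were higher. PYGM and GYS1 of glycogen turnover, PFKFB2 and the lactate exporter SLC16A3 were higher. The word called is kept for genes that passed both thresholds of the study, a fold change of 0.25 or more in either direction on the log2 scale and an adjusted p below 0.05. The calls of HK2, ENO1, SLC16A3, PDK1 and PDK3 were lost when certain single samples were left out, as given below. PDHA1, DLAT and PDK2 of the pyruvate dehydrogenase system were not called. Of the 45 genes, 42 had enough counts to be tested and 3 (ALDOC, PGAM2 and PDK4) did not. A set of 6 was called higher (14.3% of those tested, against 11.8% of all 15935 genes tested), 10 were called lower (23.8%, against 11.3% of all genes) and 26 were not called. The groups did not overlap for 27 of the 42 genes (64.3%, against 43.9% of all genes). Since the genes were chosen with this contrast known, nothing is read from these differences in share. Their log2 fold changes ran from -0.60 to 0.89 with a median of -0.094, and the median over all genes tested was 0.018. Together the 45 genes took 1.18% to 1.20% of all counts in control samples and 1.05% to 1.08% in TAK1 knockdown samples.

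**Figure D1:**
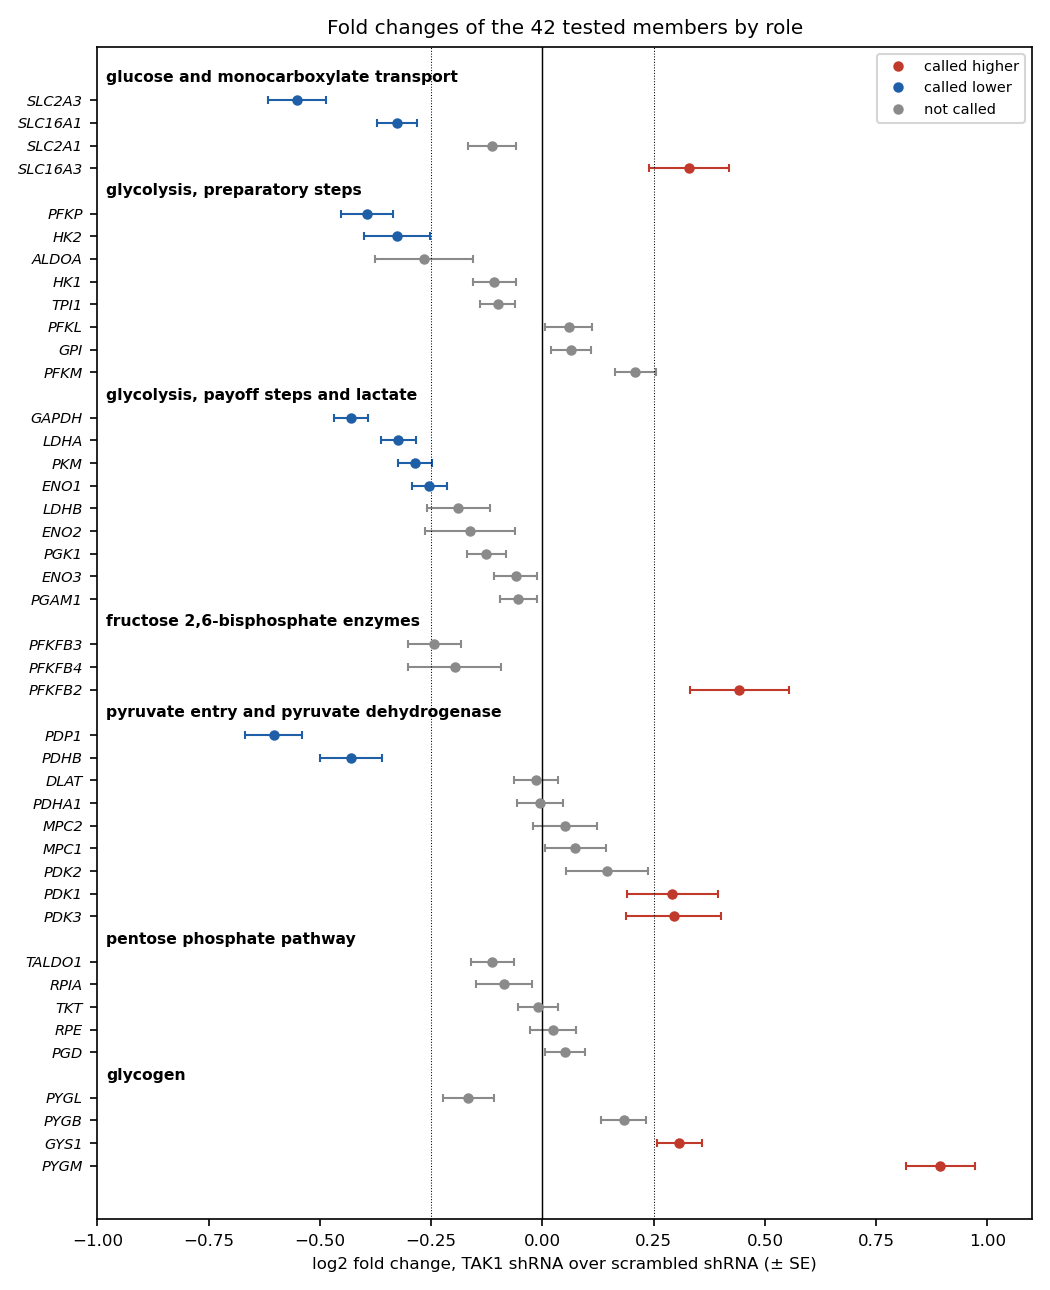
Log2 fold change of TAK1 shRNA over scrambled shRNA samples (x axis, bars ± SE, n = 3 per group) for the 42 tested genes, grouped by role, with dotted lines at the fold threshold of 0.25. All 9 tested genes of the payoff steps and lactate lie left of 0, the 5 pentose phosphate genes lie close to 0, and PYGM lies farthest right at 0.89.

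The promoters of 5 called genes are shown because they carry ACGTG or GCGTG, the core letters of hypoxia response elements. Those of LDHA and PDHB also carry the E-box CACGTG, and those of HK2, SLC16A3 and GYS1 do not. Hypoxia response elements and E-boxes are sequence patterns through which glycolytic genes are classically controlled. Of the 45 genes, 40 had a promoter window from RefSeq (GRCh38.p14, 250 bases before to 50 after the start), and PDP1, PFKFB2, PYGM, SLC16A1 and SLC2A3 had none. The window nearest to the start of the canonical GENCODE 44 transcript was used for each gene. Among called genes, those of PFKP and GAPDH, which are not printed, lay 422 and 747 bases from that start. Among genes not called, those of GPI, HK1, PGAM1 and PFKM lay 204, 217, 1627 and 3283 bases from it. The letters ACGTG and GCGTG were sought on both strands. The longest part of the 250 bases before the start that holds no annotated exon on the same strand is printed 5′ to 3′ along the gene, with ACGTG or GCGTG on either strand in capitals. LDHA, HK2 and PDHB were called lower, and SLC16A3 and GYS1 were called higher.
LDHA, chr11:18394313-18394559, plus strand: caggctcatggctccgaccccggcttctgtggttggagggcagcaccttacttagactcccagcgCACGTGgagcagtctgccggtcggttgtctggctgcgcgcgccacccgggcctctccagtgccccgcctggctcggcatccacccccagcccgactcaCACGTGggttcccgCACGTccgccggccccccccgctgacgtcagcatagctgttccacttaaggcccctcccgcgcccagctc
HK2, chr2:74833877-74834126, plus strand: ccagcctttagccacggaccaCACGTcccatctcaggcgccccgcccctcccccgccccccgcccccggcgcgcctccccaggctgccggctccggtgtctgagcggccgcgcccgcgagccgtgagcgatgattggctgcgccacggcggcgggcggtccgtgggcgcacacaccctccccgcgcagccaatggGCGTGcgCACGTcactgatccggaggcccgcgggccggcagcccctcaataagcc
PDHB, chr3:58433858-58434082, minus strand: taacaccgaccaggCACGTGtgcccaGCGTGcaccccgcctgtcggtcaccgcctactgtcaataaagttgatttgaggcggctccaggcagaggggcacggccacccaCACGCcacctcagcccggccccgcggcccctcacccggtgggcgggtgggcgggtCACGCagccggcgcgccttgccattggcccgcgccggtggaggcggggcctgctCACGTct
SLC16A3, chr17:82228792-82229041, plus strand: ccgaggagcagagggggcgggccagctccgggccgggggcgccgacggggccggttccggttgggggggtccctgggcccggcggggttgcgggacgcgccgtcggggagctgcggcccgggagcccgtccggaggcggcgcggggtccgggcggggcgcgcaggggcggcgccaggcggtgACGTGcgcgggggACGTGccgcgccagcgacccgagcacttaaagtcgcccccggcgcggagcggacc
GYS1, chr19:48993311-48993559, minus strand: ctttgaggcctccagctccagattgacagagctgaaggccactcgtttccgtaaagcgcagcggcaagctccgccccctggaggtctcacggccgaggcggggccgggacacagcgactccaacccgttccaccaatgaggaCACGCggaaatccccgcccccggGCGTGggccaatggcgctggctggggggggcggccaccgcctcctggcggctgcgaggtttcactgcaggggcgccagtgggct
The capitals mark 5 cores for LDHA, counting each strand of a palindrome, 3 for HK2, 6 for PDHB, 2 for SLC16A3 and 2 for GYS1. LDHA also held the palindrome CACGTG, an E-box that contains ACGTG on both strands, at 2 places, and PDHB at 1. Over the whole windows, ACGTG or GCGTG was found in 6 of 7 windows of genes called lower, in 4 of 4 of genes called higher and in 18 of 26 (69.2%) of genes not called. It was found in 57.0% of 15345 windows of protein-coding genes. CACGTG was found in 3 of the 7 (LDHA, PDHB and the off-start window of GAPDH), in 0 of the 4 and in 2 of the 26 (7.7%), against 8.9% of all windows. These matches are a description of letters in a window and not of binding.

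Among the carriers at the cell surface, SLC2A3 and SLC16A1 were lower and SLC16A3 was higher. SLC2A3, a high-affinity glucose transporter, had 51.1, 51.7 and 50.7 CPM in control samples and 35.4, 32.4 and 37.0 CPM in TAK1 knockdown samples. Its log2 fold change was -0.55 ± 0.065 (SE), the groups lay well apart, and the call held under all 16 alternatives. SLC2A1, the widely expressed glucose transporter, had 105, 106 and 100 CPM against 104, 90.9 and 94.0 CPM, with overlap between the groups and no call (-0.11 ± 0.054). SLC16A1, which carries lactate and pyruvate in both directions, had 335, 329 and 331 CPM against 260, 259 and 274 CPM. All TAK1 knockdown samples lay below all controls (-0.33 ± 0.044). SLC16A3, the lactate exporter typical of glycolytic muscle, had 26.8, 25.3 and 22.5 CPM against 34.2, 26.2 and 33.4 CPM. Replicate 2 of the TAK1 knockdown fell within the control range, so the groups overlapped (0.33 ± 0.090). This call was lost without control replicate 3 (0.26) or without TAK1 knockdown replicate 3 (0.27).

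In the preparatory steps 2 of 8 tested genes were called, both lower (25%, against 11.3% of all genes tested), and 3 of the 8 fold changes were positive. HK2, the inducible hexokinase that traps glucose in the cell, had 65.3, 55.6 and 57.3 CPM in control samples and 49.1, 41.6 and 51.5 CPM in TAK1 knockdown samples. The groups did not overlap (-0.33 ± 0.074), but without TAK1 knockdown replicate 2 the value was -0.24 and the call was lost. HK1, the constitutive hexokinase, had 198, 190 and 185 CPM against 179, 168 and 185 CPM and was not called (-0.11 ± 0.049). PFKP, the platelet-type phosphofructokinase of the committed step, had 65.4, 62.5 and 59.5 CPM against 48.8, 46.5 and 47.4 CPM, with clearly separate groups (-0.39 ± 0.059). PFKM, the muscle type, had 139, 142 and 143 CPM against 163, 167 and 160 CPM, with higher values in every TAK1 knockdown sample and a fold change under the threshold (0.21 ± 0.046). Scaled by library size alone, PFKM reached 0.26 and was called. PFKL, the liver type, had 177, 163 and 160 CPM against 186, 163 and 172 CPM, and the groups overlapped (0.06 ± 0.053). GPI and TPI1, which each convert one sugar phosphate isomer to another, had values of 0.06 and -0.10 and were not called.

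ALDOA, the muscle and general aldolase, had only 8.27 to 11.7 CPM over the 6 samples (-0.27 ± 0.110, not called, but called at -0.36 without TAK1 knockdown replicate 1). The program that counted reads and its use of strand are not given in the sources used here, and 42.8% of the exonic bases of ALDOA are shared with another gene on the same strand in GENCODE 44 (GRCh38 chr16:30064164-30070457), with 54.2% shared in all. PGAM2, the muscle phosphoglycerate mutase, was at 0 in all 6 samples, which allows up to 0.0849 to 0.106 CPM per sample by counting error. Its 837 exonic bases (chr7:44062727-44065567, minus strand) are all covered by exons of genes on the opposite strand, among them DBNL. Of 16 protein-coding genes with at least 95% of their exonic bases shared with the opposite strand only, 11 (68.8%) were at 0 in all samples, against 23.7% of 10204 genes that share none. Whether shared reads were dropped was not tested, so ALDOA and PGAM2 levels cannot be read as the levels of these enzymes' transcripts. Exonic bases are also shared with the opposite strand in PDK2 (38.6%), RPE (23.8%), MPC2 (21.8%), PDHA1 (19.3%) and GAPDH (17.6%). Their levels, and shares taken from them, carry this limit in part.

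All 9 tested genes of the payoff steps and lactate had negative fold changes, 4 of them called lower (44.4%, against 11.3% of all genes tested) and none higher, with a median of -0.189. GAPDH, the dehydrogenase that opens the payoff phase, had 2758, 2664 and 2683 CPM in control samples and 2065, 1961 and 1988 CPM in TAK1 knockdown samples (-0.43 ± 0.038). ENO1, the general enolase, had 1717, 1676 and 1685 CPM against 1475, 1363 and 1420 CPM (-0.25 ± 0.040). Neither gene's groups overlapped, but ENO1 lay just inside the fold threshold and lost its call with upper quartile scaling, with a stricter filter that asked for 10 counts in each sample, without control replicate 1 (-0.24), without TAK1 knockdown replicate 2 (-0.23) and scaled by library size alone (-0.21). ENO2, the neuronal enolase, had 10.9, 11.8 and 11.6 CPM against 9.78, 10.9 and 9.97 CPM (-0.16 ± 0.101), and ENO3, the muscle enolase, had 117, 117 and 118 CPM against 113, 117 and 107 CPM (-0.06 ± 0.049). Neither was called. PKM, the pyruvate kinase that yields ATP and pyruvate, had 1763, 1730 and 1735 CPM against 1444, 1411 and 1431 CPM (-0.29 ± 0.038). LDHA, which reduces pyruvate to lactate, had 750, 745 and 755 CPM against 586, 597 and 615 CPM (-0.32 ± 0.040). The spread within a group was small beside the distance between the groups for both, and PKM was not called when scaled by library size alone (-0.24). LDHB, the lactate dehydrogenase favoured in oxidative tissue, had 39.5, 40.6 and 38.5 CPM against 34.5, 31.8 and 37.7 CPM and was not called (-0.19 ± 0.070), although it was without TAK1 knockdown replicate 3 (-0.26). PGK1 and PGAM1, between GAPDH and enolase, had values of -0.13 and -0.05 and were not called. Rows named as pseudogenes held at most 0.355% as many counts as their parent gene. Whether reads that fit both a gene and a pseudogene were dropped was not tested.

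**Figure D2:**
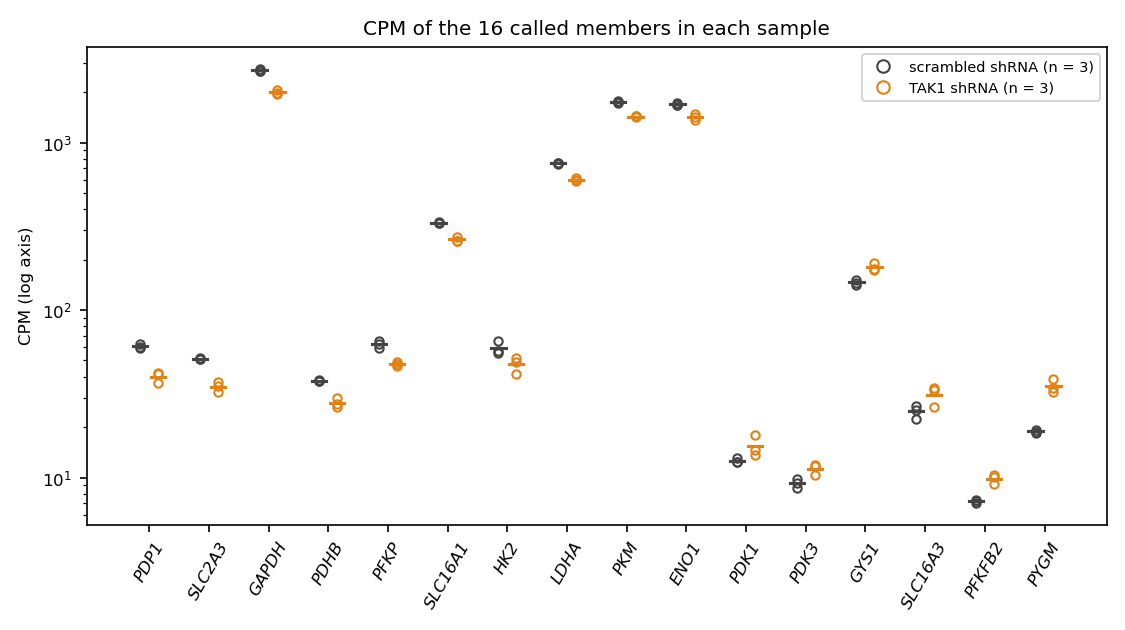
CPM on a log axis (y axis) of the 16 called genes (x axis, from the lowest to the highest log2 fold change) in each scrambled shRNA and TAK1 shRNA sample, with points for samples and bars for means. GAPDH, PKM and ENO1 lie above 1000 CPM in every sample, and SLC16A3 is the called gene whose groups overlap.

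The PFKFB enzymes make and break down the sugar bisphosphate that switches phosphofructokinase on, and here they differed in direction. PFKFB2, the heart type, had 7.28, 7.02 and 7.39 CPM in control samples and 10.1, 9.12 and 10.3 CPM in TAK1 knockdown samples, without overlap (0.44 ± 0.111). PFKFB3, the inducible form with high kinase activity, had 57.6, 54.9 and 53.7 CPM against 48.1, 44.6 and 47.7 CPM. It lay just outside the fold threshold (-0.24 ± 0.060) and passed it when control replicate 2 or 3, or TAK1 knockdown replicate 1 or 3, was left out, with -0.27 as the lowest value. PFKFB4, another inducible form, had 12.3, 11.2 and 14.2 CPM against 11.1, 11.4 and 10.5 CPM, with overlap (-0.20 ± 0.104).

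Of the 9 tested genes for pyruvate entry and the pyruvate dehydrogenase complex, 2 were called lower and 2 higher (22.2% each, against 11.3% and 11.8% of all genes tested). PDP1, a phosphatase that activates the complex, had 59.7, 60.4 and 62.5 CPM in control samples and 36.5, 41.8 and 41.7 CPM in TAK1 knockdown samples. This was the lowest of the 42 fold changes (-0.60 ± 0.064), and its call held under all 16 alternatives. Outside the genes described here, the second such phosphatase PDP2 (0.13 ± 0.098) and the regulatory subunit PDPR (0.16 ± 0.052) were not called. PDHB, a subunit of the first enzyme of the complex, had 38.2, 37.5 and 37.5 CPM against 26.5, 27.6 and 29.8 CPM (-0.43 ± 0.069), again without overlap. Its partner subunit PDHA1 and the second enzyme DLAT were at -0.01 and -0.02 and were not called. PDK1, a kinase that inactivates the complex, had 12.3, 12.3 and 13.0 CPM against 13.6, 14.5 and 17.9 CPM (0.29 ± 0.103). PDK3, of the same family, had 9.81, 8.64 and 9.31 CPM against 10.3, 11.7 and 11.9 CPM (0.29 ± 0.106). Neither gene's groups overlapped, by narrow margins. PDK1 lost its call when any one control replicate was left out and without TAK1 knockdown replicate 3, where it was 0.15. PDK3 lost its call under DESeq2, without the filter on low counts, and when control replicate 2 or 3 or TAK1 knockdown replicate 2 or 3 was left out. PDK2 had 14.3, 16.3 and 15.3 CPM against 18.7, 16.1 and 16.0 CPM, with overlap (0.14 ± 0.092). PDK4 had 0.0352 to 0.127 CPM against 0.0342 to 0.182 CPM and was too low to test. The carriers MPC1 and MPC2, which bring pyruvate into mitochondria, were at 0.07 and 0.05 and were not called.

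None of the 5 pentose phosphate genes was called, in either direction, and neither were 12251 of all 15935 genes tested. The log2 fold changes of PGD, TKT, TALDO1, RPIA and RPE, which make NADPH or interconvert sugar phosphates, ran from -0.11 to 0.05, with SEs between 0.044 and 0.063. The groups did not overlap for 1 of them (nor for 43.9% of all genes), TALDO1, at 123, 120 and 119 CPM against 111, 108 and 117 CPM.

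Of the 4 glycogen genes, 2 were called higher (11.8% of all genes tested were) and none lower, and the groups did not overlap for any of them (nor for 43.9% of all genes). PYGM, the muscle glycogen phosphorylase, had 18.8, 19.3 and 18.5 CPM in control samples and 34.4, 32.2 and 38.5 CPM in TAK1 knockdown samples, the highest of the 42 fold changes (0.89 ± 0.078). Its call held under all 16 alternatives, with values of 0.81 to 0.95 over them. GYS1, the muscle and general glycogen synthase, had 152, 141 and 145 CPM against 192, 174 and 176 CPM (0.31 ± 0.050). Both were higher in every TAK1 knockdown sample than in any control sample. PYGB, the brain phosphorylase, had 161, 151 and 149 CPM against 176, 180 and 165 CPM (0.18 ± 0.050), and PYGL, the liver phosphorylase, had 72.8, 76.8 and 69.0 CPM against 62.8, 67.2 and 64.6 CPM (-0.17 ± 0.057). Their fold changes were under the threshold.

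Levels of different genes were compared as CPM per kilobase of annotated exons. GAPDH stood highest with 1128 ± 20.9 (SD, n = 3) in control samples and 837 ± 22.6 in TAK1 knockdown samples. It was followed in both groups by ENO1 (325 ± 4.14 in control samples), TPI1 (286 ± 5.59), PKM (203 ± 2.04), PGAM1 (151 ± 1.80) and LDHA (124 ± 0.761). Ranges did not overlap between neighbours among these 6 in control samples, but the order depends on the length used, and PKM stood above TPI1, and LDHA above PGAM1, with the length of the longest or the canonical transcript. Further down, the ranges of 15 of the 44 neighbouring pairs overlapped, such as TKT and GYS1, HK1 and RPIA, and PDP1 and HK2. PYGM moved from rank 34 to rank 30 with 4.05 ± 0.0848 and 7.53 ± 0.682 CPM per kilobase, and SLC16A1 from 10 to 11. By all annotated exons, the lowest tested genes were PDK1, PFKFB2 and PDK3, between 0.530 and 0.843 in control samples, but PDK3 was at 5.31 by its canonical transcript.

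**Figure D3:**
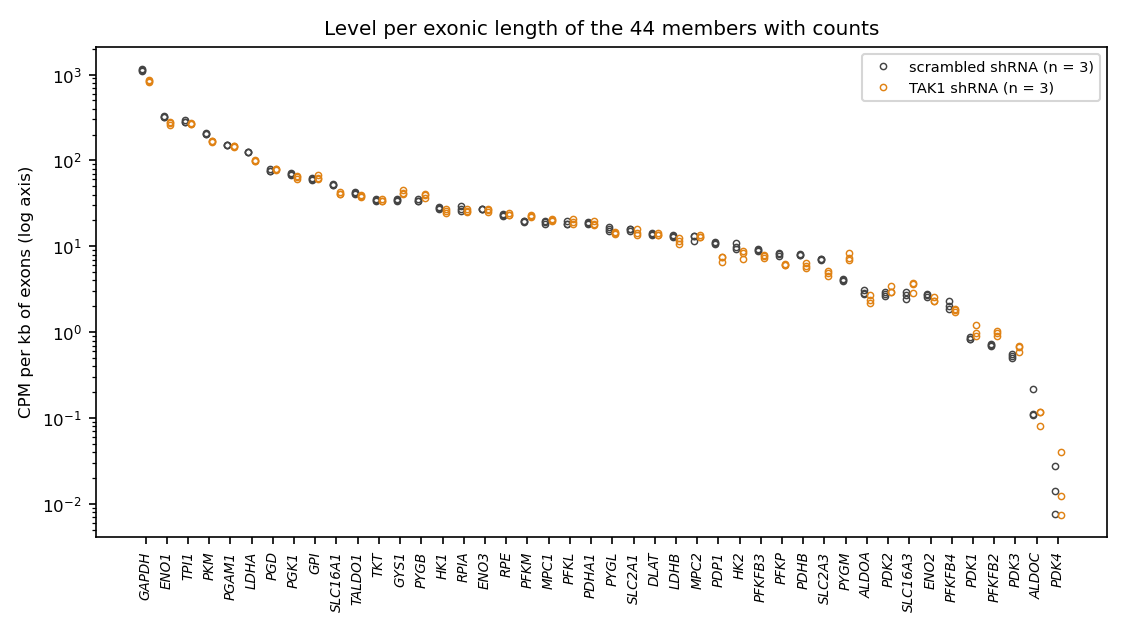
CPM per kilobase of exons on a log axis (y axis) of the 44 genes with counts (x axis, ordered by the control mean) in each scrambled shRNA and TAK1 shRNA sample. GAPDH lies highest in every sample, and the TAK1 shRNA points of PYGM lie above its control points.

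Within families, levels per kilobase were turned into each isozyme's share in each sample, with no test. SLC2A3 held 30.7%, 30.7% and 31.5% of the level of both glucose transporters in control samples and 23.8%, 24.5% and 26.4% in TAK1 knockdown samples. PFKP held 17.7%, 17.6% and 16.9% of phosphofructokinase against 12.6%, 12.6% and 12.9%, and PFKM held 40.4%, 42.6% and 43.6% against 45.3%, 48.7% and 46.5%. The PFKP share was lower and the PFKM share higher in every TAK1 knockdown sample, while that of PFKL averaged 40.4% in both groups. PYGM went from 7.44% ± 0.205 (SD, n = 3) to 12.4% ± 1.40 of glycogen phosphorylase, and PYGL from 29.4% ± 1.22 to 23.5% ± 0.646. PFKFB2 went from 6.01% ± 0.125 to 9.27% ± 0.362 of its family and SLC16A3 from 4.90% ± 0.386 to 7.51% ± 0.914 of the monocarboxylate transporters. Apart from that of PFKL, these shares did not overlap between the groups. ENO1 averaged 91.6% of enolase in control samples and 90.5% in TAK1 knockdown samples, and LDHA 90.4% and 89.5% of lactate dehydrogenase. Since 33.4% of the exonic bases of LDHB are shared with another gene on the same strand, the level of LDHB and the shares of lactate dehydrogenase carry the same limit as the level of ALDOA. The size of a share depends on the transcript length used, and that of PDK3 was 12.7% with all exons and 49.3% with the canonical transcript, a length chosen after seeing the data.

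**Figure D4:**
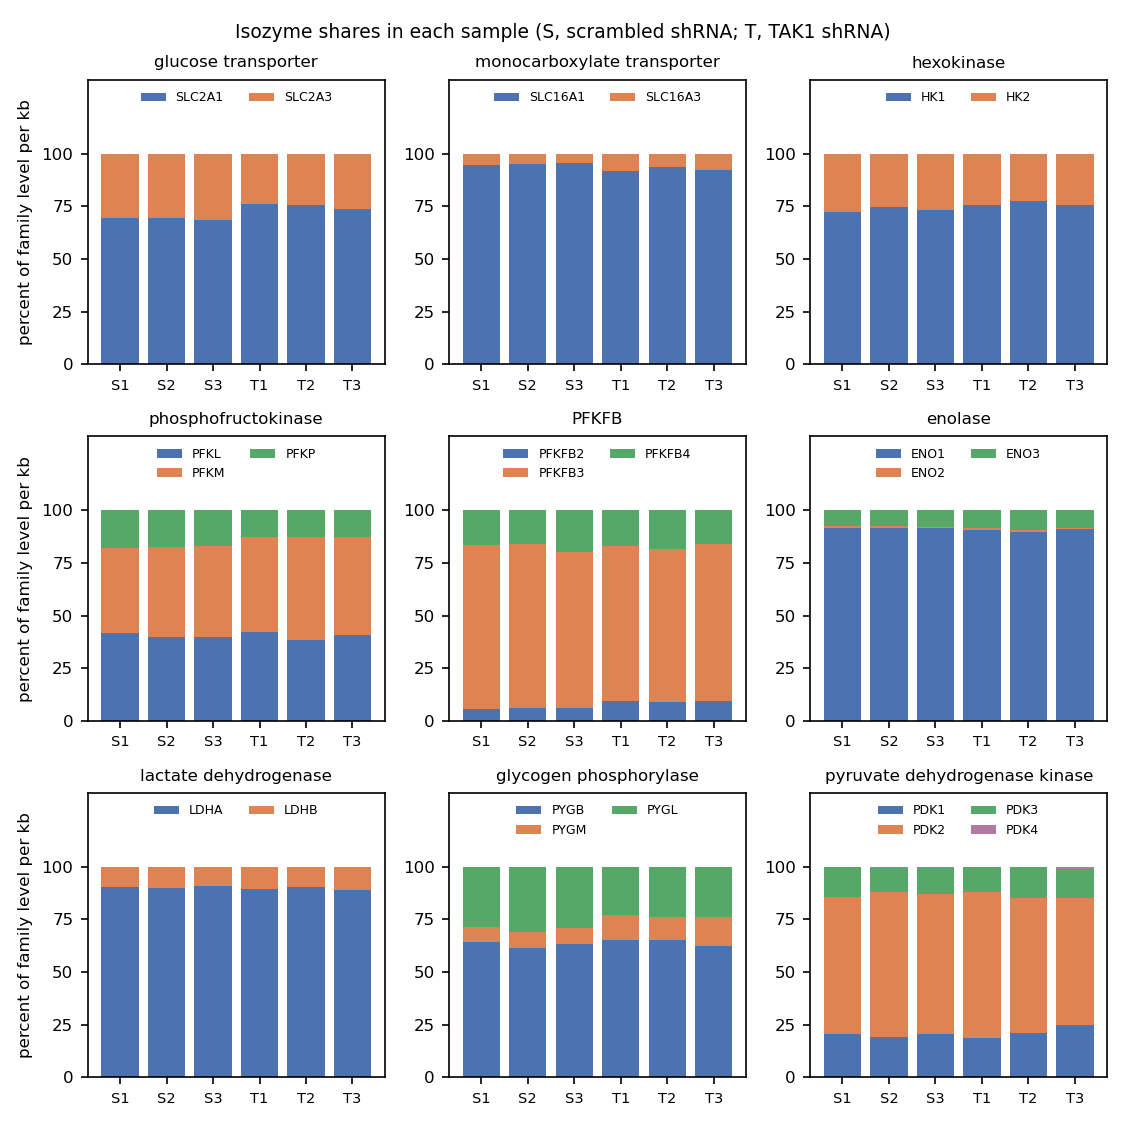
Each isozyme's percent of its family's summed CPM per kilobase (y axis, stacked) in scrambled shRNA samples S1 to S3 and TAK1 shRNA samples T1 to T3. The orange SLC2A3 and green PFKP segments are shorter, and the orange PYGM segment is taller, in T1 to T3 than in S1 to S3.

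Other genes of the same pathways, from a list of 63 that were not among the 45, were examined next. Of 41 tested, 3 were called higher (7.32%, against 11.8% of all genes tested) and 6 lower (14.6%, against 11.3%), with a median log2 fold change of 0.062 against 0.018 over all genes. The lower ones were EMB, a partner protein of monocarboxylate transporters (171 and 93.5 CPM in control and TAK1 knockdown samples, -0.87 ± 0.047), the ADP-dependent glucokinase ADPGK (-0.65 ± 0.062), PDHX, a structural subunit of the pyruvate dehydrogenase complex (-0.61 ± 0.074), the mitochondrial glycerol phosphate dehydrogenase GPD2 (-0.52 ± 0.048), PGM2 (-0.39) and PRPS1 (-0.26). GPD2 passes electrons from glycolytic NADH to the respiratory chain. Among the higher ones were the ribokinase RBKS at 1.22 and 2.21 CPM (0.85) and H6PD (0.27 ± 0.067). Without TAK1 knockdown replicate 1, or without replicate 3, 1 of these 41 genes was called higher. Over all genes tested in these fits, 1698 of 16345 and 1810 of 16266 were called higher. BSG, the other partner of the monocarboxylate transporters, had 981, 924 and 895 CPM against 1104, 948 and 975 CPM and was not called (0.11 ± 0.050). BSG was singled out after its values were seen. This list and those that follow were also drawn up with earlier results of these data known, so their calls are a description as well.

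Of 20 further glycogen genes tested, 6 were called higher (30%, against 11.8% of all genes tested) and 2 lower (10%, against 11.3%), with a median of 0.170. Higher were the phosphorylase kinase subunits PHKG1 (0.66 ± 0.248, means of 1.72 and 2.73 CPM in control and TAK1 knockdown samples), PHKA1 (0.37 ± 0.065) and PHKA2 (0.25 ± 0.074). PHKA2 lay just inside the fold threshold. Phosphorylase kinase switches glycogen phosphorylase on. Its subunits PHKB (0.01 ± 0.061) and PHKG2 (-0.18 ± 0.082) were not called. Also higher were the lysosomal glucosidase GAA (0.36 ± 0.058), and PPP1R3B (0.55 ± 0.085) and PPP1R3C (0.48 ± 0.106), which direct protein phosphatase to glycogen. Lower were glycogenin GYG2 (-0.33), on which glycogen chains are started, and the branching enzyme GBE1 (-0.27).

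Among 30 tested regulators of glucose use, 6 were called higher (20%, against 11.8% of all genes tested) and 5 lower (16.7%, against 11.3%), with a median of 0.042. HIF1A, the oxygen-sensitive subunit of the hypoxia-inducible factor, had 118, 120 and 127 CPM in control samples and 98.7, 103 and 101 CPM in TAK1 knockdown samples (-0.27 ± 0.049). Its partner ARNT was at -0.26 ± 0.057. HIF1AN and EGLN3, which hold HIF1A in check, were also lower (-0.80 ± 0.053 and -0.77 ± 0.190), as was the mitochondrial gene regulator ESRRA (-0.58 ± 0.066). Of other genes that hold HIF1A in check, the oxygen sensor EGLN2 was called higher (0.44 ± 0.151). EGLN1 (0.21 ± 0.063) and VHL (0.08 ± 0.050) were not called, and both were named after their values were seen. MYC, which activates many glycolytic genes, had 231, 222 and 227 CPM against 292, 285 and 279 CPM and was higher (0.33 ± 0.044). ARRDC4 (0.43), FOXO3 (0.42), PPARGC1B (0.27) and MLXIP (0.26) were also higher, with MLXIP just inside the fold threshold. Of 29 tested hypoxia-inducible genes outside the 45, 3 were called higher (10.3%) and 7 lower (24.1%), against the same shares of all genes, with a median of 0.020. Among the lower ones were NDRG1 (-1.12 ± 0.081), INSIG2 (-0.65), LOX (-0.59), CCNG2 (-0.43) and JMJD6 (-0.34). DDIT4 (0.48), MXI1 (0.43) and BHLHE40 (0.37) were higher.

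Genes of cell division and of muscle structure moved with the same contrast. Of 25 proliferation genes 19 were called lower (76.0%, against 11.3% of all genes tested) and none higher, with a median of -0.330. Their summed level ran from 5552 to 5603 CPM in control samples and from 4356 to 4518 CPM in TAK1 knockdown samples. The called genes with the lowest values were AURKA (-0.75), TYMS (-0.52), PCNA (-0.50), CDC6 (-0.48), GINS2 (-0.46) and CDK1 (-0.43). Of 40 tested muscle structure genes, 10 were called higher (25%, against 11.8% of all genes tested) and 2 lower (5.00%, against 11.3%), with a median of 0.184 and sums of 4031 to 4082 CPM and 4515 to 4657 CPM. TTN (1.06), CACNA1S (0.81), NEB (0.76), MYL1 (0.65), ACTN3 (0.57) and MYH8 (0.50) had the highest values among the called genes, and MYL4 (-0.37) and TPM3 (-0.37) were lower. Among the muscle isozymes of glucose use, PYGM was called higher, PFKM (0.21) and ENO3 (-0.06) were not called, and PGAM2 had no counts. The part of these genes' shifts in the fold changes of the glucose-use genes was not tested. In bulk samples, fewer cells of a type and less RNA per cell cannot be told apart.

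**Figure D5:**
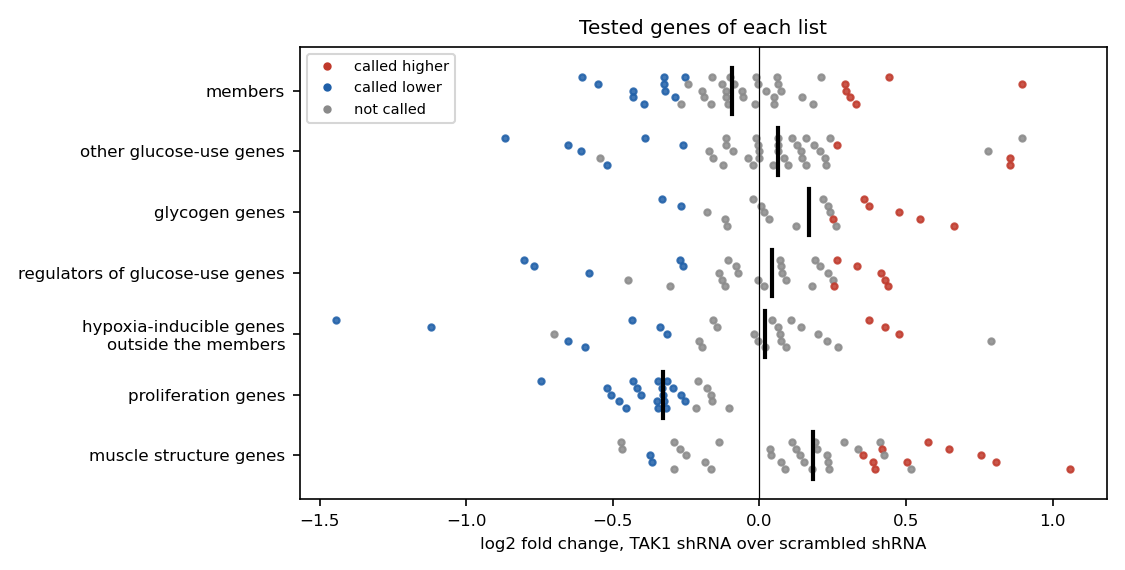
Log2 fold change of TAK1 shRNA over scrambled shRNA (x axis) of each tested gene of 7 lists (rows; points spread vertically only to show them), with a black bar at each list's median. The proliferation genes all lie left of 0 with a median of -0.330, and the muscle structure genes have a median of 0.184.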

How the data were processed

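Poly(A)-enriched RNA of RD cells was sequenced in 6 samples, 3 per group, grouped by their labels. The authors called bases with CASAVA, removed adaptor-containing and low-quality reads, aligned with STAR to GRCh38 (submitters' processing notes and the study's methods) and deposited raw counts per gene. The counter, annotation release and use of strand are not given in the sources used here. The 45 genes and all lists were chosen with earlier results of these data known.

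Counts were filtered with filterByExpr (15935 genes, at least 99.90% of counts) and compared with edgeR 4.0.16 (R 4.3.3), trimmed mean of M-values, quasi-likelihood test and Benjamini-Hochberg adjustment over all genes, with 6 samples and no covariate. Alternatives were DESeq2 1.42.0, limma 3.58.1 with voom, other normalizations, filters and fold thresholds, a replicate block and leaving out each sample. Simulated counts with known changes served to check each test. The common biological coefficient of variation was 5.67%, and replicates differed by more than sampling noise. Each SE was obtained by dividing the fold change, in log2, by the root of F. Exonic lengths, coordinates and overlaps came from GENCODE 44 on GRCh38, which may differ from the authors' annotation. Called genes and their isozyme families are given in every sample and the rest by range or value. Of each other list, up to 6 called genes per direction with the highest absolute fold change and a mean of at least 1 CPM are named, except where stated, and some genes that these lists hold are not reported here.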

Additional observations from a re-analysis of the deposited data

How the results depend on the processing

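Directions of the called genes held under all 16 alternatives, and PYGM, PDP1 and SLC2A3 kept their calls in each. Alternatives that changed only the fold threshold used the same fit, so no direction could change in them. Without a fold threshold no call could be lost. At a fold threshold of 0.5, 1 of the 42 tested genes was called higher (PYGM) and 2 lower. Of all 15935 genes tested, 735 were called higher and 680 lower at that threshold. With each sample left out in turn, between 3 and 6 of the 45 were called higher, with 3 without control replicate 3 and without TAK1 knockdown replicate 3, and between 8 and 12 lower. Over the 16227 to 16427 genes tested in these fits, between 1582 and 1810 were called higher and between 1675 and 1931 lower. Nothing is read from these counts either. Of the other glucose-use genes, 6 were called higher with library size alone and 6 without a fold threshold, against 3, and between 1 and 3 with a sample left out, with 1 without TAK1 knockdown replicate 1 and without replicate 3. Of all 15935 genes tested, 2376 were called higher with library size alone and 2569 without a fold threshold, against 1879. Library size alone put 62.9% of all calls upward, against 51.0%, and moved the median of the 45 genes from -0.094 to -0.045 and that of all genes from 0.018 to 0.066. MAP3K7 stayed between -1.36 and -1.25. With a replicate block, 6 of the 45 were called higher and 11 lower, ALDOA being the addition, and MAP3K7 was at -1.30. Of all 15935 genes tested, 1942 were called higher and 1848 lower with that block. Samples that share a number correlated at 0.09, 0.06 and 0.04 in their deviations from the group means, so the numbers were not taken to pair them. At this depth, counting error weighs most on genes with low counts, such as PDK4 and ALDOC, which were not tested. Called genes with few counts also had larger SEs, such as PFKFB2 (0.111), PDK3 (0.106) and PDK1 (0.103), against 0.038 for GAPDH.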
